A study of Mus musculus with 11 samples.

Results

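Foxa1, Foxa2, Foxa3, Hnf4a, Hhex, Otx2, Gsc and Lhx1, transcription factors used in studies of endoderm identity and of head and axis patterning, were followed in mouse naive extra-embryonic endoderm (nEnd), an embryonic stem cell derived culture that models the primitive endoderm of the blastocyst. The 8 genes were taken by name and by no cut on their values, though earlier results of these data were known. All 8 were present among the 48952 genes of the bulk RNA-seq table and among the 32285 genes of the single-cell tables. The bulk libraries came from untreated nEnd of the OCT4-mCherry reporter line, a line in which the OCT4 protein carries a red fluorescent tag. These cells were sorted by flow cytometry into Pdgfra+ cells (surface PDGFRA without reporter), DP cells (both) and Oct4+ cells (reporter without PDGFRA), with 3 libraries each. The single-cell libraries came from nEnd of the EPUc line, called Oct4-LOF, in which 4-hydroxytamoxifen (4OHT) removes the function of both copies of Oct4. Cells of this line were sorted for PDGFRA and then cultured without 4OHT (-4OHT) or with it (+4OHT), and 1 droplet library was made from the live cells of each culture. Both cultures carry the inducible allele, and no -4OHT or +4OHT library of a line without it was analysed here.

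FOXA proteins are forkhead factors that can bind DNA in closed chromatin, and FOXA2 is needed for the node, the anterior visceral endoderm and the definitive endoderm. HNF4A is a nuclear receptor that drives genes for apolipoproteins and serum proteins in visceral endoderm and later in liver. HHEX, OTX2, GSC and LHX1 are homeodomain factors that mark or shape the anterior visceral endoderm, the tissue that sets the head end of the embryo, and OTX2 also acts in the epiblast as it leaves the naive state. OCT4 (gene Pou5f1) is the POU factor that holds pluripotency in the epiblast and is also present in early primitive endoderm.

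The sorted populations bore their labels. Pou5f1 averaged 17.5 CPM (read counts scaled by library size) in Pdgfra+, 229 in DP and 981 in Oct4+ libraries, while Pdgfra averaged 729, 590 and 7.43 CPM. The bulk libraries held 8019631 to 11642571 reads, and 3 reads over a group, the limit that a count of 0 allows, came to 0.0936 to 0.124 CPM. The 13 endoderm markers summed to 450.0 to 985.6 CPM per Oct4+ library against 43330 to 66670 in DP and 61780 to 80440 in Pdgfra+ cells. In each comparison with Oct4+, all 13 endoderm markers passed the threshold, where 27.7% (with DP) and 32.0% (with Pdgfra+) of all genes tested did. Pdgfra is 1 of the 13, and its difference was fixed by the sort. The Oct4+ libraries were not uniform. Replicate 2 had the highest endoderm marker sum (985.6 CPM) and replicate 1 the highest sum of 7 fibroblast markers, at 150.4 CPM against 21.0 and 8.31. Genes of 2-cell-like cells summed to 270.9 to 941.2 CPM in Oct4+, 4.49 to 15.8 in DP and 1.15 to 2.89 in Pdgfra+ libraries.

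Before their expression levels, start regions are shown for the genes that moved together (Foxa2, Foxa3 and Hnf4a) and for Foxa1, which moved the other way. Otx2 is also shown, whose mean was highest in Oct4+ but was set there by replicate 2. RefSeq start regions in the GRCm38.p6 build, from 250 bases before to 50 bases after each annotated start, matched all 8 genes in 14 windows. Both strands were searched for 7 motifs, namely the forkhead motifs TGTTTAC and TGTTTGC, the homeodomain half-site GTTAAT, the OTX and GSC motif TAATCC, the octamer ATGCAAAT of POU factors, the HNF4 motif CAAAGTCCA and the GATA motif AGATAA. Capitals mark the matches in the sequences, which are written 5′ to 3′ on the strand of the gene.
Foxa1, minus strand, chr12:57546062-57546361: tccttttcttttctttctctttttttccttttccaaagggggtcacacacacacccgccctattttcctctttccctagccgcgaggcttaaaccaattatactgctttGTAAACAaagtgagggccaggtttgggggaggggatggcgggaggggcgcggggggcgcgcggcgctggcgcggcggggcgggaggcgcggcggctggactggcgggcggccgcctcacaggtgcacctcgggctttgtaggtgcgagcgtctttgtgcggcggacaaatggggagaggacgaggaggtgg
Foxa2, minus strand, chr2:148045415-148045714: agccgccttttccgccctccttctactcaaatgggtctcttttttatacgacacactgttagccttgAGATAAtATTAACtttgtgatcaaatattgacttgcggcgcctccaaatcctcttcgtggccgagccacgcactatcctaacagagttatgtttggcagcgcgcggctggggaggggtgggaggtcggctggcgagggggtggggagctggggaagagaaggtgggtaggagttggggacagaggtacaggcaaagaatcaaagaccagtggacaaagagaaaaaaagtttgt
Foxa3, minus strand, chr7:19023490-19023789: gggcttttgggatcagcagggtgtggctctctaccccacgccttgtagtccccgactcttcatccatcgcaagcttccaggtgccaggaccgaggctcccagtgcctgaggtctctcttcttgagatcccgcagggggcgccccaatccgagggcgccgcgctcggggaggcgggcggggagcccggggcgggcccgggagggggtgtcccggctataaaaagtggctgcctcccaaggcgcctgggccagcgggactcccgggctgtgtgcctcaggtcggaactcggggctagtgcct
Hnf4a, plus strand, chr2:163546905-163547204: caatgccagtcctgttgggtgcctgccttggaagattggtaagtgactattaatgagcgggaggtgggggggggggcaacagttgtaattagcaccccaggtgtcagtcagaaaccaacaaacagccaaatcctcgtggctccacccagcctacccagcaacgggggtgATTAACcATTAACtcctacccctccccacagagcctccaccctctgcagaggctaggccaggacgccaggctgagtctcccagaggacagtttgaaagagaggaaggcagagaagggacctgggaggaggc
Otx2, minus strand, chr14:48665060-48665359: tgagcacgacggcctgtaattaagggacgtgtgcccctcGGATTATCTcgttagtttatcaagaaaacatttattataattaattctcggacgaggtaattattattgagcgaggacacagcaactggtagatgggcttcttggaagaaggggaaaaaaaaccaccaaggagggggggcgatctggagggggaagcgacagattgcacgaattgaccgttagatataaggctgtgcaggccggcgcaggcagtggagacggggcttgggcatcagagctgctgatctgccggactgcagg
The Foxa1 window held the forkhead motif TGTTTAC on the opposite strand, from base 110 of the window, a motif present in 3.65% of 32851 RefSeq windows of the same length. The Foxa2 window held AGATAA from base 68 and, just after it, GTTAAT on the opposite strand from base 75. That window lies inside the gene, as do the windows shown for Foxa1, Hnf4a and Otx2. The other Foxa2 windows, with that at the gene's annotated 5′ end (chr2:148046920-148047219), held no match. The Hnf4a window held GTTAAT on the opposite strand at bases 170 and 177. GTTAAT occurred in 7.10% and AGATAA in 11.2% of all windows, shares that count single windows and not genes with several. In Otx2, TAATCC (7.06% of windows) on the opposite strand from base 40 overlapped AGATAA on the same strand from base 43. None of these letters was found in the Foxa3 window shown. Another Hnf4a and another Otx2 window each held AGATAA, so that 6 of the 14 windows, of 4 of the 8 genes, held a match. TGTTTGC (5.07% of windows), ATGCAAAT (1.74%) and CAAAGTCCA (0.475%) matched no window of these genes. A match is a run of letters and not evidence of binding.

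Among the forkhead genes, Foxa2 and Foxa3 were high in the PDGFRA-positive populations and low in Oct4+ cells, and Foxa1 had the reverse order. Foxa2 (GRCm38 chromosome 2, 148042877 to 148046969) read 122.9, 102.8 and 136.7 CPM in Pdgfra+ replicates 1 to 3, 114.7, 80.1 and 87.1 in DP and 0.853, 4.73 and 0.554 in Oct4+. No Oct4+ library came near the lowest endoderm library, whereas DP and Pdgfra+ overlapped. Foxa3 (chromosome 7, 19013284 to 19023538) read 49.6, 34.7 and 41.7 CPM in Pdgfra+, 35.7, 14.2 and 20.9 in DP and 0.93, 3.25 and 0.222 in Oct4+, with the same order of groups. Foxa1 (chromosome 12, 57540628 to 57546916) read 0.855, 1.30 and 1.04 CPM in Pdgfra+, 1.496, 5.07 and 1.70 in DP and 9.46, 14.1 and 10.4 in Oct4+. Its 3 groups did not overlap, and the Pdgfra+ values rest on 7, 13 and 10 reads.

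Hnf4a (chromosome 2, 163506808 to 163572910) followed Foxa2 and Foxa3. It read 73.1, 84.6 and 111.6 CPM in Pdgfra+, 56.1, 59.7 and 75.4 in DP and 1.94, 5.03 and 3.88 in Oct4+. The highest DP library lay above the lowest Pdgfra+ library, and the Oct4+ libraries lay far below both. The antisense gene Hnf4aos, which overlaps it, had 0 reads in all 9 libraries.

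**Figure D1:**
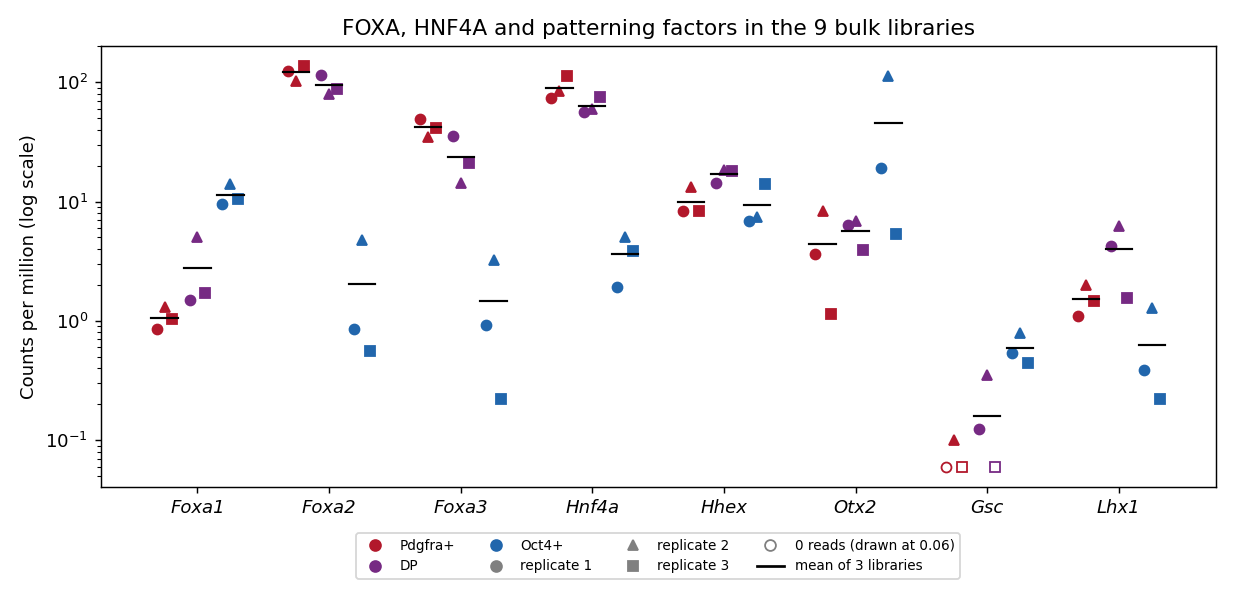
Levels of the 8 genes in the 9 bulk libraries, in CPM on a log axis, by sorted population, with 1 symbol shape per replicate number, open symbols at 0 reads and a bar at the mean. Foxa2, Foxa3 and Hnf4a fall in Oct4+, Foxa1 rises there, and the Otx2 mean of Oct4+ is set by replicate 2 at 113 CPM.

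The patterning genes did not share 1 pattern. Hhex (chromosome 19, 37434810 to 37440731), a repressor that marks the distal and anterior visceral endoderm, read 8.30, 13.4 and 8.25 CPM in Pdgfra+, 14.3, 18.4 and 18.2 in DP and 6.82, 7.39 and 14.0 in Oct4+. The DP libraries lay above all others, and Pdgfra+ and Oct4+ overlapped. Otx2 (chromosome 14, 48657677 to 48673819) read 3.66, 8.37 and 1.15 CPM in Pdgfra+, 6.36, 6.84 and 3.92 in DP and 19.2, 113 and 5.32 in Oct4+. The Oct4+ libraries spanned a wider range than the other groups together, and the lowest of them lay within the range of both other groups. Lhx1 (chromosome 11, 84518284 to 84525535), a LIM-homeodomain partner of OTX2 in the anterior endoderm, read 1.10, 1.99 and 1.46 CPM in Pdgfra+, 4.24, 6.25 and 1.57 in DP and 0.388, 1.28 and 0.222 in Oct4+. DP replicate 3 lay inside the Pdgfra+ range. Gsc (chromosome 12, 104471209 to 104473330), the goosecoid gene of the gastrula organizer, was barely detected, with 0, 1 and 0 reads in Pdgfra+, 1, 3 and 0 in DP and 7, 8 and 4 in Oct4+. The label of endoderm factors thus held for Foxa2, Foxa3 and Hnf4a, while Foxa1 was highest in the population with epiblast markers and the Gsc reads were most numerous there.

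Per kilobase of exon, Foxa2 was the most abundant of the 8 in both PDGFRA-positive populations, at 51.0 ± 7.20 CPM per kb in Pdgfra+ and 39.6 ± 7.72 in DP cells (SD, n = 3). In Pdgfra+ it was followed by Foxa3 (20.6 ± 3.66) and Hnf4a (18.6 ± 4.09), which did not differ beyond their spread, and then by Hhex (1.97 ± 0.580). In DP the same neighbours were at 11.57 ± 5.4 (Foxa3) and 13.2 ± 2.13 (Hnf4a), again within their spread. In Oct4+ cells Foxa1 was at 3.40 ± 0.736 and Hhex at 1.86 ± 0.785 CPM per kb. The Otx2 mean there, 10.9 ± 13.9 CPM per kb, was set by replicate 2 (26.8 against 4.55 and 1.26), and in replicate 3 Foxa1 (3.13) lay above it. Foxa2, Foxa3 and Hnf4a all lay below 1 CPM per kb there, within their spread of each other.

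DP cells were first set against Pdgfra+ cells, the comparison of endoderm with and without OCT4. None of the 7 genes tested passed the threshold (edgeR's quasi-likelihood test, Benjamini-Hochberg adjusted p below 0.05 over 14185 genes and an absolute log2 fold change above 1.5), where 3.89% of all genes tested did (3.20% upward). Gsc had too few reads to be tested. At an unadjusted p below 0.05 there were 2, Foxa1 and Hhex, and DESeq2 also called 0. Foxa1 averaged 2.76 ± 2.01 CPM in DP and 1.06 ± 0.221 in Pdgfra+ (SD, n = 3), a log2 fold change of 1.36 ± 0.51 (SE) with edgeR adjusted p = 0.132. DP replicate 2 held 43 of the 68 Foxa1 reads of the group, and without it the log2 fold change was 0.57 (edgeR adjusted p = 0.520). Hhex averaged 17.0 ± 2.29 against 9.97 ± 2.93 CPM (log2 fold change 0.77 ± 0.33, edgeR adjusted p = 0.178). For these genes the DP libraries all lay above the Pdgfra+ libraries, as the libraries of 34.2% of all genes tested lay apart in 1 direction or the other. Foxa2, Foxa3 and Hnf4a had negative log2 fold changes (-0.36 ± 0.43, -0.83 ± 0.51 and -0.49 ± 0.27), Lhx1 had 1.39 ± 0.63 (0.92 without DP replicate 2) and Otx2 0.37 ± 1.0. The median over the 7 genes was 0.37, and over all genes tested 0.02.

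The DP and Pdgfra+ libraries were taken as paired by replicate number, on a correlation of their counts and not on the labels. With a replicate block, in a fit of the DP and Pdgfra+ libraries alone, Foxa3 (log2 fold change -0.89, edgeR adjusted p = 0.0250), Hnf4a (-0.47, 0.0266) and Hhex (0.81, 0.0389) passed an adjusted p of 0.05. Each was below the fold limit, so that the number past the threshold was still 0. By the adjusted p alone 20.2% of 12541 genes passed in that fit. In the fit of all 9 libraries without the block, 6.87% of 14185 genes and none of the 7 passed. The fits differ in their libraries and genes tested as well as in the block, so that comparing them cannot put the change on the block alone. A fit of the DP and Pdgfra+ libraries without the block was also run, and its adjusted p-values are not given here. Foxa2, Foxa3 and Hnf4a were lower in DP than in Pdgfra+ in 3 of 3 pairs, Foxa1, Hhex and Lhx1 were higher in 3 of 3, and Otx2 was higher in 2 of 3. In the same comparison 10 of 11 epiblast markers passed the threshold upward, and their sum ran from 649.1 to 980.1 CPM in DP against 174.0 to 267.6 in Pdgfra+ libraries. Their part in the differences of Foxa1 and Hhex was not tested. In bulk libraries, fewer cells of a type and less RNA per cell cannot be told apart.

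DP cells were next set against Oct4+ cells, which share the reporter but lack PDGFRA. Of the 7 genes tested, 6 passed the threshold, 4 higher in DP and 2 lower, against 27.7% of all genes tested (13.1% higher and 14.6% lower). Foxa2 was higher by 5.53 ± 0.56 on the log2 scale (edgeR adjusted p = 3.27e-05), with 94.0 ± 18.3 CPM in DP and 2.05 ± 2.33 in Oct4+. Hnf4a was higher by 4.16 ± 0.32 (edgeR adjusted p = 7.73e-06), with 63.7 ± 10.3 against 3.62 ± 1.56 CPM. Foxa3 and Lhx1 were higher by 3.99 ± 0.63 and 2.66 ± 0.68 (edgeR adjusted p = 0.000467 and 0.00730). Without Oct4+ replicate 2, which held 48 of the 64 Foxa2 reads of its group, the values were 7.0 for Foxa2, 5.22 for Foxa3 and 3.63 for Lhx1. Foxa1 was lower in DP, at a log2 fold change of -2.03 ± 0.46 (edgeR adjusted p = 0.00404), or -2.80 without DP replicate 2. Hhex had an edgeR adjusted p of 0.0456 with a log2 fold change of 0.86 ± 0.33, under the fold limit. All 7 genes thus had an adjusted p below 0.05, as did 56.2% of all genes tested, and the libraries of all but Otx2 did not overlap, as those of 62.6% did not. The median over the 7 genes was 2.66, and -0.04 over all genes tested.

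Otx2 was called lower in DP, at -3.0 ± 0.99 (edgeR adjusted p = 0.0251), but its libraries overlapped and the call rested on single libraries. Without Oct4+ replicate 2 the log2 fold change was -1.11 with an edgeR adjusted p of 0.228. Without DP replicate 1, 2 or 3 it was -3.05, -3.13 or -2.76, with edgeR adjusted p of 0.0656, 0.0534 and 0.0810. Oct4+ replicate 2 had 113 CPM of Otx2, and its sum over 6 other genes of the formative epiblast, the state between naive and primed pluripotency, was 613.5 CPM against 363.9 and 249.7 in replicates 1 and 3. In DP libraries the same sum was 357.8, 838.9 and 565.7 CPM, with Otx2 at only 3.92 to 6.84 CPM. The endoderm marker sum of Oct4+ replicate 2 was also the highest of the 3 Oct4+ libraries, as were its Foxa2, Foxa3 and Hnf4a levels. What part formative or endoderm cells had in the values was not tested.

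**Figure D2:**
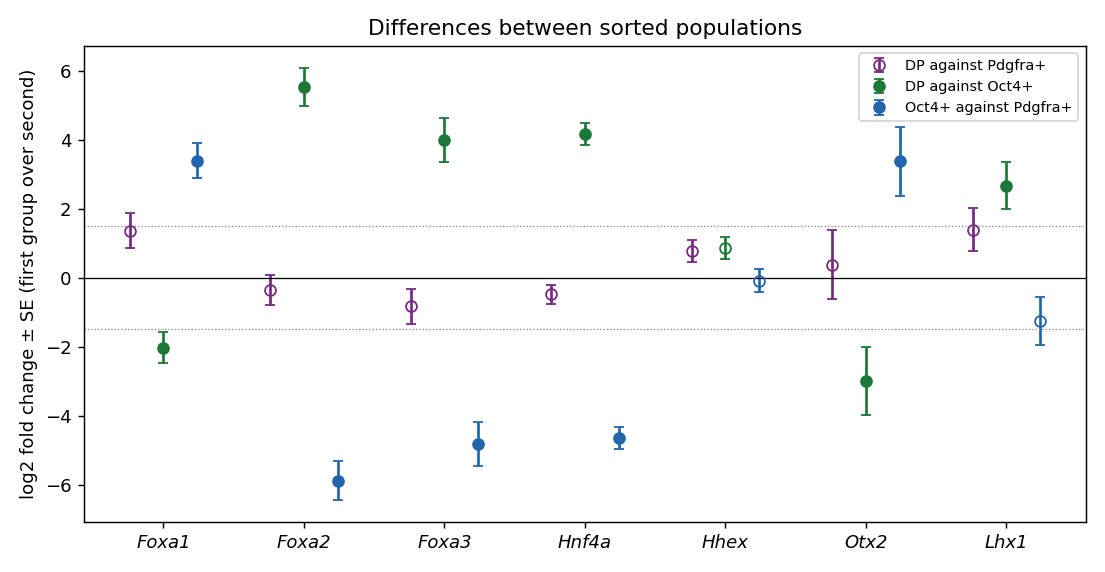
Log2 fold changes with standard errors from edgeR for the 7 genes tested, in the 3 bulk comparisons, with filled symbols past the threshold and dotted lines at the fold limit of 1.5 in both directions. Foxa2, Foxa3 and Hnf4a lie beyond the limit in both comparisons with Oct4+ and inside it between DP and Pdgfra+.

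Oct4+ cells were last set against Pdgfra+ cells. Of the 7 genes, 5 passed, 2 higher in Oct4+ and 3 lower, against 32.0% of all genes tested (17.3% higher and 14.7% lower). By the adjusted p alone 63.2% of all genes passed and the same 5 of the 7. Foxa1, Foxa2, Foxa3 and Hnf4a had no overlap between the groups, as 69.3% of all genes had none. Foxa1 was higher by 3.39 ± 0.50 (edgeR adjusted p = 0.000247), from 1.06 ± 0.221 to 11.3 ± 2.45 CPM. Foxa2, Foxa3 and Hnf4a had log2 fold changes of -5.89 ± 0.56, -4.82 ± 0.64 and -4.65 ± 0.33 (edgeR adjusted p = 1.77e-05, 0.000124 and 3.56e-06). Without Oct4+ replicate 2 Foxa2 was at -7.36 and Foxa3 at -6.05. Otx2 was higher by 3.37 ± 1.0 (edgeR adjusted p = 0.0139), and without Oct4+ replicate 2 the value was 1.48 with an edgeR adjusted p of 0.107. Hhex averaged 9.39 ± 3.97 CPM in Oct4+ and 9.97 ± 2.93 in Pdgfra+ (log2 fold change -0.09 ± 0.33, edgeR adjusted p = 0.819), and the sign of this value changed under 4 of the alternatives tried. Lhx1 had -1.26 ± 0.69 (edgeR adjusted p = 0.136), and -2.24 with an edgeR adjusted p of 0.0267 without Oct4+ replicate 2. Gsc had 19 reads in the Oct4+ group and 1 in the Pdgfra+ group, a ratio of 16.5 after scaling to library size, with an exact 95% counting interval of 2.62 to 685. Without a filter on low counts its log2 fold change was 3.60 (edgeR adjusted p = 0.0144), and DESeq2 gave 4.00 (adjusted p = 0.0350). The median over the 7 genes tested was -1.26, and 0.01 over all genes tested. The 3 comparisons share libraries, so that their values are not independent of each other.

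The targets of these factors were read from lists of genes. Among 17 HNF factors and visceral endoderm genes that HNF4A and FOXA are known to control, 11 were tested. Of these, 7 were higher and 0 lower in DP against Oct4+ (median log2 fold change 3.68), among them the apolipoprotein gene Apoa4 (5.35 ± 0.56, edgeR adjusted p = 3.97e-05) and the fetal serum protein gene Afp (4.57 ± 0.85, 0.00129). In Oct4+ against Pdgfra+, 0 were higher and 6 lower (median -2.68), among them Afp at -4.82 ± 0.85 and the transthyretin gene Ttr at -4.45 ± 0.93. Between DP and Pdgfra+ 0 of 11 passed in either direction (median 0.40). Apoe, a lipid carrier gene with most of the list's counts, averaged 1660 CPM in DP, 677 in Pdgfra+ and 332 in Oct4+. Its log2 fold change in DP against Pdgfra+ was 1.29 ± 0.17 (edgeR adjusted p = 0.0101), below the fold limit.

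Of 7 other anterior visceral endoderm genes, 6 were tested. In DP against Pdgfra+, 2 were higher and 0 lower (median 1.83), namely the secreted WNT antagonists Dkk1 (1.68 ± 0.42, edgeR adjusted p = 0.0446) and Sfrp1 (1.58 ± 0.40, 0.0463). In DP against Oct4+ the list split, with 2 higher (Dkk1 at 5.26 ± 0.52 and the homeobox gene Hesx1 at 4.21 ± 0.70) and 3 lower, among them the Nodal antagonist gene Lefty1 at -2.89 ± 0.91. In Oct4+ against Pdgfra+, 3 were higher, with Lefty1 and Shisa2, which encodes a WNT and FGF receptor antagonist, both at 5.33, and 2 lower, with Dkk1 at -3.58 ± 0.49. Of 6 formative epiblast genes other than Otx2, all tested, 4 were higher and 0 lower in Oct4+ against Pdgfra+ (median 3.35), led by the WNT effector gene Lef1 (5.45 ± 0.89), Sox3 (5.10 ± 0.48) and the POU factor gene Pou3f1 (4.16 ± 0.84). In DP against Oct4+, 0 were higher and 3 lower, the same genes at -4.62 ± 0.84, -5.34 ± 0.49 and -3.78 ± 0.83. Between DP and Pdgfra+ 0 passed (median 0.84).

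Of 8 primitive streak and definitive endoderm genes, only 3 had enough reads to be tested. The hormone gene Trh and the chemokine receptor gene Cxcr4 were higher in DP than in Pdgfra+ (3.58 ± 0.63 and 2.09 ± 0.52) and higher in Oct4+ than in Pdgfra+ (7.90 ± 0.68 and 2.36 ± 0.51), and Trh was lower in DP than in Oct4+ (-4.32 ± 0.54). Among 5 co-regulators that bind LIM factors, HHEX or GSC, the Groucho-family corepressor gene Tle4 was lower in DP than in Oct4+ (-3.10 ± 0.29) and higher in Oct4+ than in Pdgfra+ (3.15 ± 0.29), where Tle3 of the same family was lower (-1.53 ± 0.14), and 0 passed between DP and Pdgfra+. Of 3 paralogs of the homeodomain genes (Otx1, Gsc2 and Lhx5), 1 was tested, Otx1, and it passed in no comparison.

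The closest patterns over the 9 libraries were found by Pearson's r of log2 CPM among 10879 other genes of at least 5 CPM. The libraries fall into 3 groups, so that r mostly compares the order of the groups. Foxa2 was most like B4galt7 and Pth1r (both r = 0.996), Foxa3 like Igf2 (0.998) and Lzts2 (0.997), and Hnf4a like Gorasp2 (0.998) and Cryab (0.995). Foxa1 was most like Dctd (0.989) and Haus3 (0.988). The closest genes were less close for Hhex (Grpel1, 0.962, and Rab35, 0.953), Otx2 (Tent4b, 0.963, and Zfp330, 0.936) and Lhx1 (Ttc33, 0.946, and Irs4, 0.939). Foxa1, Otx2, Gsc and Lhx1 had their highest CPM in replicate 2 of every group, a pattern shown by 1140 of 17855 genes (6.38%).

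The single-cell libraries of the Oct4-LOF line showed which cells carried each gene. Of 6896 barcodes without and 7283 with 4OHT, 5267 and 6266 cells were kept, with a median of 18073 and 12684.5 unique molecular identifiers (UMIs, 1 per captured RNA molecule) per cell. The libraries shared 21 barcodes. Cells were clustered without the 8 genes and without Pou5f1. Clusters 1 (led by Gkn1, Gkn2, Tff1, Clu and Serpinb9b), 2 (Car4, Pitx1, Pimreg, Msl3 and Cited1) and 5 (Amn, Cubn, Npl, Myo7a and Nefl) were endoderm-like, each with 9 of 13 endoderm markers high, and clusters 3 and 4 were epiblast-like. Endoderm-like cells made up 1350 of the cells without 4OHT (25.6%) and 6031 of those with it (96.2%). Epiblast-like cells numbered 3643 (69.2%) without 4OHT and 0 of 6266 with it, which allows a share of up to 0.0589% (exact 95% interval). With 1 library per culture, differences between them have no replicate check, and the intervals cover counting error only.

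Clusters 1, 2 and 5 divided by culture. Without 4OHT they held 209, 420 and 721 cells, and with it 3819, 2199 and 13. Pou5f1, whose deletion is the treatment, stood at 21.9 CPM in cluster 5 and 3.00 CPM in clusters 1 and 2 without 4OHT, and at 1.75 CPM in clusters 1 and 2 with 4OHT. Epiblast-like cells had 48.5 CPM. Gata6, a master regulator of primitive endoderm, was at 215 CPM in cluster 5 and Pdgfra at 134 CPM, so that cluster 5 was endoderm-like with a higher Pou5f1 level. Nanog was at 16.5 CPM in cluster 5, 5.66 and 5.80 CPM in clusters 1 and 2 without 4OHT, and 194.9 and 151.0 CPM in the epiblast-like clusters 3 and 4.

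**Figure D3:**
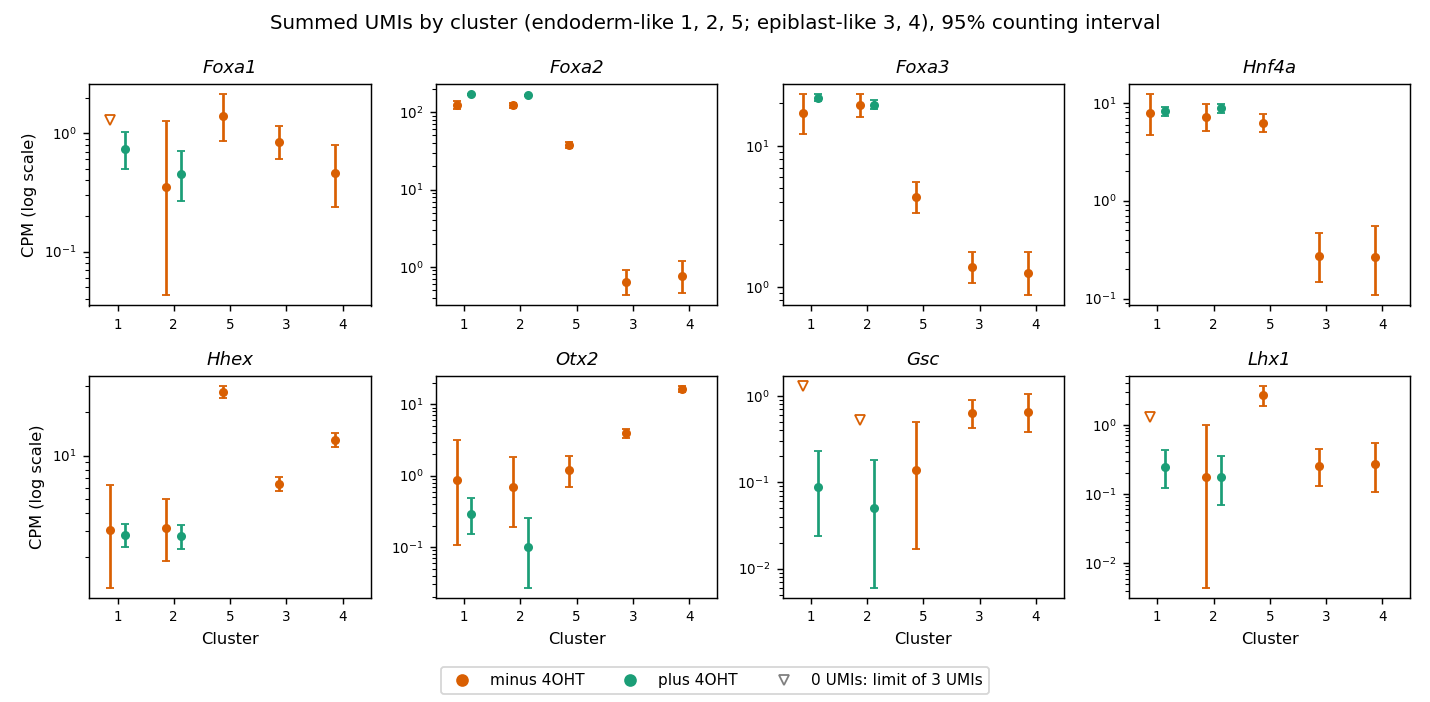
Levels of the 8 genes in the endoderm-like clusters 1, 2 and 5 and the epiblast-like clusters 3 and 4, in CPM of summed UMIs on a log axis, by culture, with exact 95% counting intervals and open triangles at the limit that 0 UMIs allow. Hhex and Lhx1 are highest in cluster 5, Foxa2 and Foxa3 in clusters 1 and 2, and Otx2 in cluster 4.

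Within the -4OHT library, cluster 5 had less Foxa2 and Foxa3 and more Hhex, Lhx1 and Foxa1 than clusters 1 and 2. Foxa2 stood at 37.7 CPM in cluster 5 (540 UMIs) and 123 CPM in clusters 1 and 2 (983 UMIs), 3.26 times lower (exact 95% counting interval 2.93 to 3.63), and Foxa3 at 4.33 against 18.7 CPM, 4.31 times lower (3.18 to 5.89). Hnf4a was at 6.29 against 7.38 CPM, a ratio of 0.851 (0.606 to 1.2). Foxa2, Foxa3 and Hnf4a therefore did not move as 1 block between these endoderm-like clusters, as they had in the bulk comparisons with Oct4+ cells. Between the sorted endoderm populations, DP against Pdgfra+, none of these genes passed the threshold (log2 fold changes -0.36, -0.83 and -0.49). Hhex stood at 27.4 CPM in cluster 5 (393 UMIs) against 3.13 (25 UMIs), 8.77 times higher (5.85 to 13.7). Lhx1 had 38 UMIs in cluster 5 and 1 in clusters 1 and 2, a ratio of 21.2 (3.58 to 859). Foxa1 had 20 UMIs against 2, a ratio of 5.58 (1.36 to 49.2), and Otx2 17 against 6, a ratio of 1.58 (0.595 to 4.90).

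The Lhx1 molecules sat in few cells. The 38 UMIs of cluster 5 came from 16 of its 721 cells. At a clustering resolution of 0.5, a subcluster of 256 cells without 4OHT, 255 of them from cluster 5 (led by Amot, Cubn, Amn, Tfec and Spink1, with no cell type name), held 38 Lhx1 UMIs in 16 cells. Another of 475 cells, 459 of them from cluster 5 (led by Amn, Cubn, Npl, Myo7a and Fam151a), held 0, which allows up to 0.348 CPM at 3 UMIs. The median depth was 23151 UMIs in the first and 17293 in the second. Hhex did not follow this split, with 160 and 232 UMIs, or 26.9 CPM in both.

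Shares of cells with a UMI were also compared. At the depth sequenced, 35.2% of cluster 5 cells had a Hhex UMI, against 3.50% in clusters 1 and 2 without 4OHT, 3.52% with 4OHT and 15.2% in epiblast-like cells. With each cell thinned to 5000 UMIs these shares were 12.5%, 1.44%, 1.28% and 4.24%. Foxa2 was found in 71.7% of cells of clusters 1 and 2 without 4OHT and in 48.8% of cluster 5 (44.1% and 17.7% after thinning), and in 1.26% of epiblast-like cells (0.299%), a cell type that should lack it and that was sequenced to a median of 19045 UMIs per cell against 18457 in cluster 5 and 11934 in clusters 1 and 2. Foxa3 was found in 21.0% of clusters 1 and 2, 7.77% of cluster 5 and 2.64% of epiblast-like cells (8.82%, 2.34% and 0.691% after thinning). Hnf4a was found in 8.59%, 11.7% and 0.522% (3.59%, 3.24% and 0.130%), so that its order between the endoderm-like clusters at full depth went against its CPM and is not read. Otx2 was found in 8.76% of epiblast-like cells and 1.48% of endoderm-like cells without 4OHT (3.76% and 0.412%).

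Otx2 and Gsc were higher in epiblast-like cells than in the endoderm-like class as a whole, and Foxa2, Foxa3 and Hnf4a were lower. Hhex and Lhx1 were also lower than in the whole class, but not than in clusters 1 and 2 alone. Against the endoderm-like cells of the -4OHT library, Otx2 was 8.14 times higher (5.37 to 12.9), at 8.39 CPM (616 UMIs) against 1.03 (23 UMIs). Gsc was 7.14 times higher (1.87 to 60.7), with 47 UMIs against 2. Between the epiblast-like clusters, Otx2 was 4.21 times higher in cluster 4 (Dpys, Ankrd31, Calcoco2, Zfp990 and Pipox) than in cluster 3 (Cdx1, Mylpf, Tdgf1, Bmp4 and Eras), at 16.5 against 3.91 CPM (3.53 to 5.03), and Hhex was 2.01 times higher (1.72 to 2.36), at 12.8 against 6.37 CPM. Over all epiblast-like cells Hhex was 2.16 times lower than in endoderm-like cells (1.91 to 2.45), at 8.66 against 18.7 CPM. Without cluster 5 the order was reversed, since clusters 1 and 2 without 4OHT had 3.13 CPM of Hhex. Foxa2 was 100 times lower in epiblast-like than in endoderm-like cells (75.7 to 136), Hnf4a 24.5 times (15.3 to 41.3), Foxa3 7.09 times (5.55 to 9.10) and Lhx1 6.76 times (3.81 to 12.4). Of the 39 endoderm-like Lhx1 UMIs, 38 were in cluster 5. Clusters 1 and 2 had 0.125 CPM of Lhx1 (1 UMI) against 0.259 CPM in epiblast-like cells, too few UMIs to rank. Foxa1 stood at 0.708 CPM in epiblast-like and 0.986 CPM in endoderm-like cells, a ratio of 0.718 (0.428 to 1.24). Of the 22 endoderm-like Foxa1 UMIs, 20 were in cluster 5, and clusters 1 and 2 had 0.250 CPM (2 UMIs). The sorted Oct4+ libraries of the other line had 11.3 ± 2.45 CPM of Foxa1 against 1.06 ± 0.221 in Pdgfra+. This bulk order was not seen against the endoderm-like class as a whole. Against clusters 1 and 2 alone epiblast-like cells were higher, as in bulk, but that rests on 2 UMIs.

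The cultures with and without 4OHT were then compared over all endoderm-like cells, to ask what loss of Oct4 changed in endoderm. Of the 8 genes, 7 had at least 20 UMIs in 1 library, and 5 differed by over 2-fold, 2 higher with 4OHT and 3 lower, where 22.6% of 14844 genes did (14.6% higher and 8.07% lower). Foxa2 was at 68.3 CPM without and 167 CPM with 4OHT, a ratio of 2.45 (2.32 to 2.58), and Foxa3 at 9.46 and 20.9 CPM, a ratio of 2.21 (1.91 to 2.56). Hhex was at 18.7 and 2.79 CPM, 6.72 times lower (5.72 to 7.91), Lhx1 at 1.75 and 0.211 CPM, 8.29 times lower (4.63 to 15.4), and Otx2 at 1.03 and 0.211 CPM, 4.89 times lower (2.52 to 9.62). Hnf4a was at 6.68 and 8.47 CPM, a ratio of 1.27 (1.06 to 1.52), and Foxa1 at 0.986 and 0.597 CPM, a ratio of 0.606 (0.361 to 1.05). Gsc had 2 and 6 UMIs, too few to rank.

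The 3 clusters entered this comparison unevenly, since cluster 5 held 721 of the 1350 endoderm-like cells without 4OHT and 13 of the 6031 with it. In clusters 1 and 2 alone, Hhex was at 3.13 and 2.79 CPM, a ratio of 0.892 (0.589 to 1.41), and Foxa3 at 18.7 and 20.9 CPM, a ratio of 1.12 (0.947 to 1.33). Foxa2 was at 123 and 167 CPM, a ratio of 1.36 (1.27 to 1.45) whose interval lay above 1. Hnf4a had a ratio of 1.15 (0.880 to 1.52). Lhx1, with 1 and 18 UMIs, had a ratio of 1.69 (0.266 to 70.3), and Otx2, with 6 and 17 UMIs, 0.265 (0.0999 to 0.822). Only Foxa1 passed the rule of size there, with 2 and 51 UMIs and a ratio of 2.39 (0.628 to 20.3) whose interval held 1, against 9.14% of 14570 genes (6.45% higher and 2.69% lower).

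**Figure D4:**
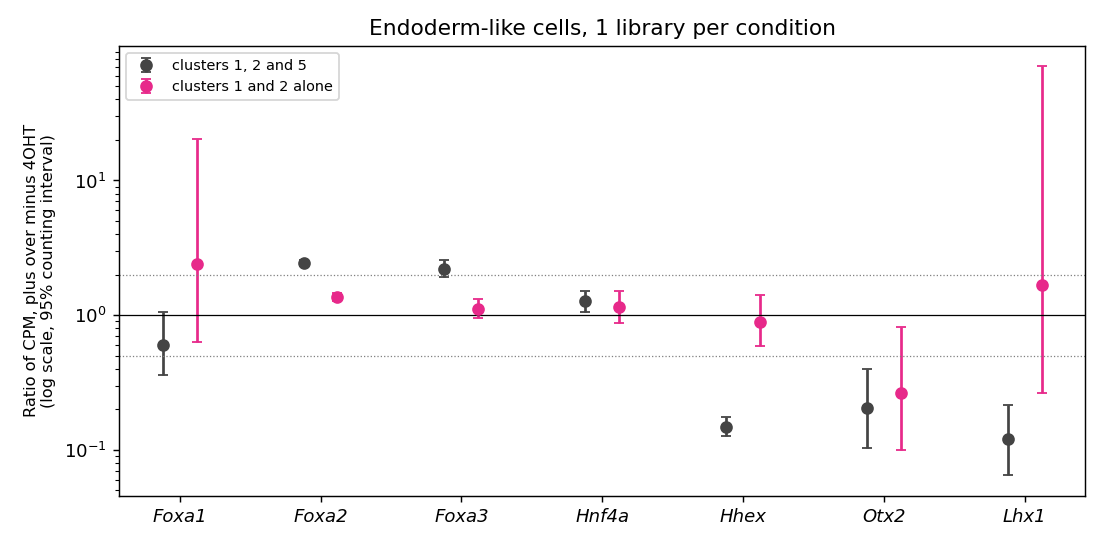
Ratio of +4OHT to -4OHT CPM with exact 95% counting intervals on a log axis for 7 genes, over all endoderm-like cells and over clusters 1 and 2 alone, with dotted lines at 0.5 and 2. The Hhex ratio moves from 0.149 to 0.892 and the Foxa2 ratio from 2.45 to 1.36 when cluster 5 is left out.

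The lists of related genes were read in the same cells. Over all endoderm-like cells, 12 of the 17 HNF and visceral endoderm genes had enough UMIs, of which 1 was over 2-fold higher with 4OHT and 6 lower (median log2 ratio -1.67, against 0.19 over all genes). Among the apolipoprotein genes, Apoc3 had 22 UMIs without and 0 with 4OHT, and Apom and Apob had log2 ratios of -5.62 and -4.85. In clusters 1 and 2, 7 had enough UMIs, with 1 higher (the fibrinogen gene Fgb, 1.13) and 2 lower (Afp, -1.08, and Apoe, -1.02), and a median of -0.22. Of 6 anterior visceral endoderm genes, 5 were lower over all endoderm-like cells, led by Hesx1 (-4.11) and Lefty1 (-3.32), and 3 in clusters 1 and 2, where Sfrp5 had -1.86. Of 6 formative epiblast genes 5 were lower, led by Fgf5 (-4.92) and the DNA methyltransferase gene Dnmt3b (-3.72), against 1 of 4 in clusters 1 and 2 (Pou3f1, -1.46). Of 8 streak genes only 2 had enough UMIs, and both were lower, Trh at -6.07 and Eomes at -2.35, against Trh alone in clusters 1 and 2 (-5.34). Among the 5 co-regulators Ssbp3, a partner of the LIM-binding protein LDB1, was higher (1.27), and 0 were past 2-fold in clusters 1 and 2. Of 2 paralogs with enough UMIs 0 passed, and Lhx5 was higher in clusters 1 and 2 (2.01). The 11 epiblast markers summed to 2607 CPM without and 678 CPM with 4OHT over the endoderm-like cells, and to 870 and 676 CPM in clusters 1 and 2, where Dppa5a made up most of the sum (772.6 and 640.6 CPM). In clusters 1 and 2, 7 of the 10 with enough UMIs were over 2-fold lower with 4OHT (median log2 ratio -2.54), led by Esrrb at -6.71, as were 11 of 11 over the class (median -5.99), and their part in the values of the 8 genes was not tested.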

How the data were processed

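Bulk libraries were made from sorted OCT4-mCherry nEnd with a directional kit, and the deposited values are raw counts of reads for each gene symbol. For these counts the aligner, counter, annotation and strand setting are not given in the sources, and without strand a gene and its antisense partner cannot be told apart. The deposited table ended in 35 blank lines, which held no values, and every value column matched a sample. The deposited single-cell values are UMI counts of each gene in each called barcode, and their header names Cell Ranger 6.1.2. The study's methods give another version number and name the mm10 mouse genome.

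Groups came from the labels. The study calls the bulk replicates biological, without saying in what they were separate, and p-values measure the spread between these libraries, which may be technical. No pair of replicates agreed within sampling noise (chi-square per degree of freedom 16.7 to 36.6). Counts were fitted in R 4.3.3 with edgeR 4.0.16 (filterByExpr, TMM, 1 quasi-likelihood fit over all 9 libraries, 14185 genes tested), and CPM used TMM-scaled library sizes. DESeq2 1.42.0 (the study's tool), other scaling and filters, fewer libraries and the replicate block were alternatives. Deviations of same-numbered libraries correlated at 0.271, 0.477 and 0.321 for DP with Pdgfra+, and these groups were taken as paired on that basis, which comes from the counts and not from the labels. They correlated at 0.0222, -0.0728 and 0.152 between DP and Oct4+ and at 0.0383, -0.00412 and -0.0465 between Oct4+ and Pdgfra+. These values show no pairing with Oct4+ and cannot exclude that same-numbered libraries came from the same sort. Ratios of summed counts have exact 95% conditional binomial intervals and levels exact Poisson intervals, which cover counting error only. The floor of a count of 0 was 3 counts.

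Single cells with at least 1500 genes and at most 10% mitochondrial counts were clustered in scanpy 1.11.5 (2000 variable genes, 20 components, 15 neighbours, Leiden at resolution 0.2, with leidenalg 0.10.2). No doublet caller was run, and leaving out cells above 2 times their library's median UMIs was an alternative. A cluster was named by the marker list with the largest share of markers at 0.5 or more of the highest cluster's CPM, with over 0.5 of the list and at least 3 markers, a rule set after the data were seen. Shares were also computed after thinning to 5000 UMIs, leaving out shallower cells. Exon lengths came from GENCODE (GRCm38) and start regions from RefSeq. Tests were checked on simulated data. The 8 genes and all lists were chosen with earlier results of these data known. Named beside the 8 were the check genes, up to 3 genes per list and comparison past the limits by size of change, the 2 genes most like each of the 8, and the leading genes of clusters. The result for 1 list gene picked by this rule is not reported here. The values given for Apoe and the finer clusters were singled out after they were seen.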

Additional observations from a re-analysis of the deposited data

How the results depend on the processing

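Of 249 recomputed bulk log2 fold changes of the 7 genes tested, 238 kept their direction and their side of the threshold, 5 no longer passed, 1 newly passed and 5 changed sign. Otx2 in DP against Pdgfra+ ranged from -0.08 (without Pdgfra+ replicate 3) to 1.27 (without Pdgfra+ replicate 2). Hhex in Oct4+ against Pdgfra+ was 0.01 under a filter of 5 CPM, 0.08 without Oct4+ replicate 1, 0.05 without Oct4+ replicate 2 and 0.15 without Pdgfra+ replicate 2, and at its lowest -0.50 without Oct4+ replicate 3. The number of the 8 past the threshold stayed at 0 in DP against Pdgfra+ and ranged from 5 to 6 in the other comparisons. Over all genes, 552 passed in DP against Pdgfra+, 914 in DESeq2, 1023 without a filter on low counts and 57 to 728 when a library was left out. The replicate block was fitted on the compared libraries alone. Its counts were 713 in DP against Pdgfra+, 3767 (against 3933) in DP against Oct4+ and 4427 (against 4535) in Oct4+ against Pdgfra+. These fits changed no call of the 8 beyond those given above. In the single cells, 5 genes were past 2-fold over the endoderm-like cells, 2 at a clustering resolution of 0.5, 1 in clusters 1 and 2 alone, and 0 in cluster 1 or cluster 2 alone, these last 3 alternatives being chosen after seeing the data. In cluster 1 alone Foxa1 had 0 UMIs without and 33 with 4OHT, so that it had no ratio and was not counted. The number past 2-fold was 4 after scaling by the median ratio, where Foxa3 had a ratio of 1.94, 4 without high-UMI cells, where Otx2 fell short of 20 UMIs, and 7 over all filtered cells or all barcodes, where Foxa2 had ratios of 9.79 and 9.65. The Lhx1 log2 ratio, -3.05 over these cells, was 1.79 at resolution 0.5 and 0.75 in clusters 1 and 2, where 1 UMI without 4OHT was left. Of 58 recomputed single-cell ratios, 27 moved within their counting interval and 31 moved further, of which 4 changed sign, the other 2 being Foxa1 (-0.72 over these cells) at 1.26 in clusters 1 and 2 and 0.35 in cluster 2. The cause of these changes was not tested, other than the loss of cluster 5 cells that the alternatives themselves impose. Depth limited Gsc, with at most 8 reads in a bulk library, and Foxa1, Otx2 and Lhx1 in endoderm-like cells, with at most 51 UMIs in a library.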

Other observations

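Among the smaller clusters, Foxa2 was found in the 199 trophectoderm-like cells with 4OHT at 51.1 CPM (195 UMIs, in 32.2% of cells), with Foxa3 at 5.5 CPM and Hnf4a at 1.84 CPM. Gata6 stood at 109.6 CPM and Pdgfra at 51.9 CPM in these cells. Pou5f1 was still found in them, at 19.1 CPM (73 UMIs, in 27.6% of cells), as was Nanog at 27.8 CPM. The 31 fibroblast-like cells with 4OHT had 45.0 CPM of Foxa2 and 153.8 CPM of Gata6, and the 65 cells of the unnamed cluster without 4OHT, at a median of 28179 UMIs, had 41.0 CPM of Foxa2, 118.8 of Gata6 and 100.6 of Nanog. The 160 2-cell-like cells without 4OHT had Hhex at 9.69 CPM (28 UMIs) and 0 UMIs of Hnf4a and Lhx1.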
